A study of Mus musculus with 14 samples.

Results

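The costimulatory receptors of T cells were followed through 10 genes: Cd28, Cd27, Cd40lg, Tnfrsf9, Tnfrsf4, Tnfrsf25, Cd226, Cd2, Cd6 and Slamf6. They were taken by gene symbol from a table of read counts for 24091 genes, and all 10 were present and had enough reads to be tested. RNA was sequenced from T cells sorted from mouse spleen, 200000 cells per mouse and 1 library per mouse. The CP CML group (chronic phase chronic myeloid leukemia) held 8 Mir142+/+BCR-ABL mice, and the BC CML group (blast crisis) held 6 Mir142-/-BCR-ABL mice. Both groups carried the BCR-ABL transgene under SCL-driven, tetracycline-controlled expression (SCLtTA/BCR-ABL), both had it induced by tetracycline withdrawal for 3 weeks, and none was treated otherwise. Per the study's methods the mice were male and female, 6 to 10 weeks old and on a CD45.2 C57Bl/6j background. Mir142 was absent from every cell of the BC CML mice, T cells and leukemic cells alike, so deletion in the T cells and the change in disease phase cannot be told apart. The animal numbers in the labels begin alike within each group and differently between groups. The labels do not say what this prefix marks, so whatever it marks cannot be told apart from genotype either.

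A T cell needs a signal from its antigen receptor and a second, costimulatory signal to divide, produce cytokines and survive. CD28, which binds CD80 and CD86 on antigen-presenting cells, is the best known source of that signal, and CTLA-4 competes with it for the same ligands. Receptors of the TNF receptor superfamily (CD27, 4-1BB, OX40 and DR3, encoded by Cd27, Tnfrsf9, Tnfrsf4 and Tnfrsf25) recruit TRAF adaptors and feed into NF-κB, while CD40L, encoded by Cd40lg, is the TNF family ligand by which helper T cells act on B cells and dendritic cells. CD226 promotes killing and adhesion and shares its ligand CD155 with the inhibitory receptors TIGIT and CD96. CD2, CD6 and SLAMF6 are adhesion and signalling partners of the contact between T cells and other cells.

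MicroRNA-142, the gene deleted in BC CML, yields a pair of mature strands that recognise messages mainly through their seed. Both are shown to allow comparison with the 3′UTRs of the receptors. They were taken from RefSeq on GRCm38.p6, at chr11:87756867-87756887 for the 5p strand and chr11:87756903-87756925 for the 3p strand, both on the plus strand. Capitals mark the seed, bases 2 to 8.
miR-142a-5p: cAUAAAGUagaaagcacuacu
miR-142a-3p: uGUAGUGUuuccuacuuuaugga

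The longest annotated 3′UTR of each receptor (GENCODE vM21, same build) was searched on its sense strand for ACTTTAT, the 7-letter match to the 5p seed, and ACACTAC, the match to the 3p seed. Of the 10 receptors, 2 held the 5p match (Cd28 and Cd226) and 1 the 3p match (Slamf6), against 14.8% and 6.24% of 19777 genes with a 3′UTR. The Slamf6 match was the 8-letter form ACACTACA, which 2.74% of genes held, and it lay at bases 1786 to 1793 of the 3′UTR. The Cd28 match lay at bases 764 to 770, and the other 7 3′UTRs held neither. These matches are descriptions of letters, not measured binding. Capitals mark the match in the windows printed here, which lie on the plus strand at chr1:171950465-171950494 for Slamf6 and chr1:60770538-60770566 for Cd28.
Slamf6: ataaacctcttACACTACAtatgttgcatg
Cd28: gaagtaaggtcACTTTATgtaaaaaaaaa

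RefSeq promoter windows (GRCm38.p6, 250 bases before to 50 after the start) were matched for 5 of the 10 receptors. Those of Cd27, Tnfrsf9 and Slamf6 are shown because these genes had the largest differences among the receptors, in opposite directions. They cover chr6:125236978-125237277 on the minus strand for Cd27, chr4:150919905-150920204 on the plus strand for Tnfrsf9, which has a second annotated start, and chr1:171917212-171917511 on the plus strand for Slamf6. Letters associated with T cell transcription factors were searched on both strands: TGTGGT for RUNX, CTTTGA for TCF/LEF, GGTGTGA for T-box factors, TTTCC for NFAT and CANNTG for E-box factors. Over 32851 promoter windows, 16.8% held the RUNX, 16% the TCF/LEF, 3.98% the T-box, 61.3% the NFAT and 72.3% the E-box letters, each motif being searched separately, so that matches of different motifs may share bases. Capitals mark RUNX and TCF/LEF letters. Cd27 and this start of Tnfrsf9 each held 1 TCF/LEF match and no RUNX match, and Slamf6 held neither. Of the windows not shown, the second Tnfrsf9 start held 1 RUNX match and no TCF/LEF match. For Tnfrsf25, 1 start held 1 match of each, and its other start and the Tnfrsf4 window held neither.
Cd27: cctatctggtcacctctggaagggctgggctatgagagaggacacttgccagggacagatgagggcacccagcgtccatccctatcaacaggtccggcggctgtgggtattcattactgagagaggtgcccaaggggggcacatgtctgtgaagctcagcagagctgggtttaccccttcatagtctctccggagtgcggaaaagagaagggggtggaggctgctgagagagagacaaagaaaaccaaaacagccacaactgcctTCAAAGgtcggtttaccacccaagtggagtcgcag
Tnfrsf9: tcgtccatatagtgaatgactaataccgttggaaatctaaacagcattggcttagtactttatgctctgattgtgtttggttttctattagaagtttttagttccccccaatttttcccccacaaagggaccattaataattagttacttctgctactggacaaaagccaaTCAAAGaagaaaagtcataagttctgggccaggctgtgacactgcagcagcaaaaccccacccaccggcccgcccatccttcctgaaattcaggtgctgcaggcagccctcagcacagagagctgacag
Slamf6: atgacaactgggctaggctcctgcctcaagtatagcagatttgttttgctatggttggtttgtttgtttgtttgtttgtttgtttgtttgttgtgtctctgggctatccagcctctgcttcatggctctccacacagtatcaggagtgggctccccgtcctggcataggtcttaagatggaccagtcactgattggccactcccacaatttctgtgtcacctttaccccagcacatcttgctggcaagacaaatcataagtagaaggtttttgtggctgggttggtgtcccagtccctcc

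Reads in genes numbered 15703702 to 19914531 per CP CML library and 16145537 to 19399720 per BC CML library. Mir142 had 302 to 650 reads in each CP CML library and 0 in each BC CML library. The sorted cells carried the defining T cell genes: Cd3d, Cd3e and Cd8b1 did not pass the test between groups, Cd3g and Cd8a rose, and Cd247 and Cd4 fell. Markers of other cells moved with the group, with 5 of 6 B cell genes, 7 of 8 myeloid genes, 4 of 4 NK genes and 3 of 3 tested dendritic cell genes higher in BC CML, where 32.6% of all genes tested were higher and 32.7% lower. The summed normalized counts were 33.3 to 125 in CP CML and 63.5 to 362 in BC CML for B cell genes, 60.9 to 434 and 523 to 1317 for myeloid genes, 56.9 to 77.3 and 176 to 299 for NK genes, and 7.22 to 18.4 and 32.2 to 117 for dendritic cell genes. Of the 3 tested erythroid and platelet genes 1 was higher and 1 lower, near the shares of all genes, with sums of 16.5 to 52.7 and 33.8 to 56.3. No marker was at 0 in every library of a group. These values are reads scaled to a common library size (TMM-scaled CPM), the unit of every normalized count given here.

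Most of the costimulatory receptors differed between CP CML and BC CML, in both directions. Cd27, Tnfrsf9, Cd226, Cd6, Cd2 and Cd28 rose in BC CML, Slamf6, Tnfrsf4 and Tnfrsf25 fell, and Cd40lg did not pass the test. Thus 6 of 10 were higher, where 32.6% of the 12248 genes tested were higher, and 3 of 10 were lower, where 32.7% were lower. In all, 9 of 10 passed, where 65.2% of all genes did, so a difference as such was common in this comparison. Every BC CML mouse lay above every CP CML mouse for 5 receptors (19.3% of all genes) and below for 3 (17.6% of all genes). The median log2 fold change of the 10 was 0.24, and that of all genes was -0.01. Together the 10 genes took 0.167% ± 0.005 of the reads in the 8 CP CML mice and 0.204% ± 0.012 in the 6 BC CML mice (mean ± SD). In bulk RNA, fewer cells of a type and less RNA per cell cannot be told apart. When libraries were scaled on the summed counts of Cd3d, Cd3e, Cd3g and Cd247 instead, the median of all genes shifted to -0.15. The share of called genes that were higher went from 49.9% to 33.2%. Cd28 lost its call with a value just below 0, and Cd40lg was called lower. Of these reference genes Cd3g rose (log2 fold change 0.59), Cd247 fell (-0.32), and Cd3d (-0.08) and Cd3e (0.02) did not pass the test. The reference thus was not constant between groups.

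**Figure D1:**
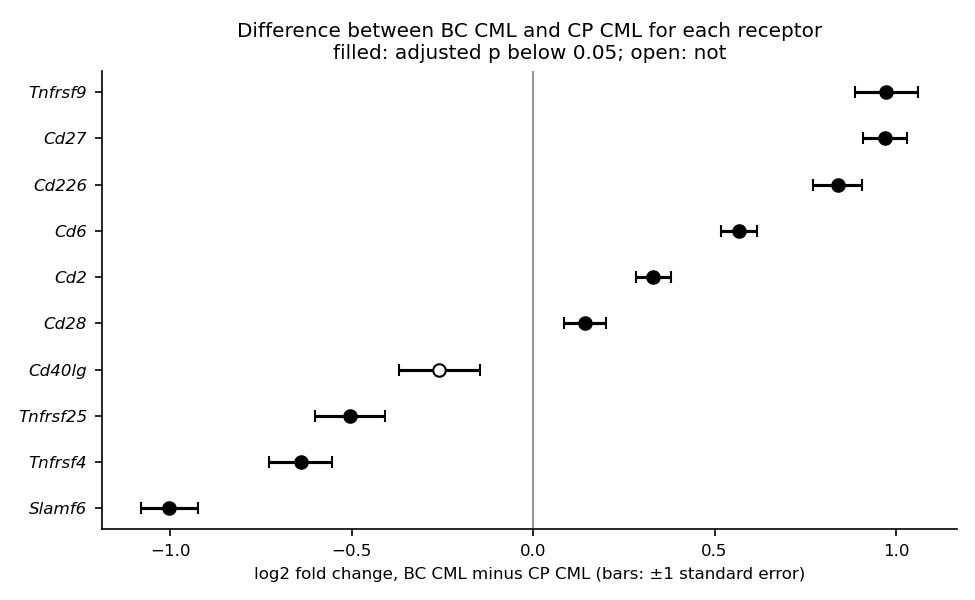
Log2 fold change of each receptor between BC CML (6 mice) and CP CML (8 mice), with bars of 1 standard error; filled points had an adjusted p below 0.05. Tnfrsf9 and Cd27 lie highest at 0.97, Slamf6 lowest at -1.003, and Cd40lg is the open point at -0.26.

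Cd28, the receptor of CD80 and CD86, spans 60746388 to 60773359 of chromosome 1, mm10, (plus strand). Its normalized count ran from 251 through a median of 273 to 298 in CP CML and from 267 through 295 to 348 in BC CML. The groups overlapped, and only BC CML replicates 1, 5 and 6 lay above every CP CML mouse. The means were 272 ± 13.0 (SD, n = 8) and 301 ± 33.3 (SD, n = 6), a log2 fold change of 0.14 ± 0.06 (SE) with an adjusted p of 0.0355 in edgeR's quasi-likelihood test. It is the smallest change among the 9 receptors called, and 28.7% of all genes had a smaller absolute change. The call was lost without any 1 of 7 libraries: CP CML replicate 1 (0.14, adjusted p = 0.0528), 2 (0.13, 0.0660), 3 (0.14, 0.0587) or 8 (0.14, 0.0530), or BC CML replicate 1 (0.11, 0.0965), 5 (0.13, 0.0643) or 6 (0.10, 0.112).

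Around Cd28, the message of its inhibitory relative fell and those of its ligands rose. Ctla4 fell from 65.5 ± 9.4 (SD, n = 8) to 25.9 ± 5.9 (SD, n = 6), a log2 fold change of -1.34 ± 0.13 (SE; adjusted p = 2.9e-07). By flow cytometry the paper reports the other direction for the protein, more CTLA-4 on both CD4+ and CD8+ T cells in spleens of Mir142-/-BCR-ABL mice. Counted within each library, the log2 ratio of Cd28 to Ctla4 reads was 1.79 to 2.35 in CP CML and 3.18 to 4.13 in BC CML. The groups did not overlap, and the mean ratio was 2.81-fold higher in BC CML (difference 1.49, exact two-sided permutation p = 0.000333, the smallest this design allows, and 0.000666 adjusted over the 8 ratios compared). Icos, the other costimulator of this family, fell by 0.79 ± 0.08 (SE) on the log2 scale from 127 to 73.3, with no overlap. Ctla4 and Icos are also high in regulatory T cells, and Foxp3 (-1.73) and Cd4 (-0.73) fell with them on the log2 scale; their part in these values and in the Cd28 to Ctla4 ratio was not tested. The CD28 ligands Cd80 (log2 fold change 0.86) and Cd86 (0.56) and the ICOS ligand Icosl (0.99) rose, at mean normalized counts of 5.43, 16.5 and 50.7 in BC CML, while B cell, myeloid and dendritic cell genes, whose cells present these ligands, rose as well. Their part in the ligand values was not tested.

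Among the TNF receptor family, Cd27 and Tnfrsf9 each rose 1.96-fold while Tnfrsf4 and Tnfrsf25 fell. Cd27, whose product binds CD70 and supports survival of primed T cells, spans 125232622 to 125237027 of chromosome 6 (minus strand). Its normalized count was 211 to 275 with a median of 241 in CP CML and 446 to 517 with a median of 473 in BC CML. Every BC CML mouse lay well above every CP CML mouse. The means were 245 ± 25.0 (SD, n = 8) and 480 ± 26.6 (SD, n = 6), a 1.96-fold rise (log2 0.97 ± 0.06 SE, adjusted p = 2.2e-10). It was the one receptor that kept its call under every alternative tried. Cd6 and Tnfrsf9 lost theirs only with Foxp3 as a covariate, where their differences were 0.52 and 1.08. The correlation of Foxp3 with the group was -0.985.

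Tnfrsf9, which encodes the activation-induced receptor 4-1BB, spans 150920155 to 150946102 of chromosome 4 (plus strand). Its normalized count was 38.3 to 52.5 with a median of 42.3 in CP CML and 67.2 to 103 with a median of 84.9 in BC CML. Again no BC CML mouse overlapped CP CML, and BC CML replicate 6 was the highest. The rise was 1.96-fold (log2 0.97 ± 0.09 SE, adjusted p = 5.2e-08).

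Tnfrsf4, encoding OX40, and Tnfrsf25, encoding DR3, span 156013695 to 156016589 and 152115934 to 152120119 of chromosome 4 (plus strand). The normalized count of Tnfrsf4 was 27.7 to 35.9 with a median of 32.2 in CP CML and 16.5 to 24.0 with a median of 19.98 in BC CML, without overlap. It fell by 0.64 ± 0.09 (SE) on the log2 scale (adjusted p = 4.5e-06), so that its level fell by 35.9%. With the Cd4 to Cd8a ratio as a covariate its difference was -0.31 and was not called. Tnfrsf25 had 28.4 to 36.9 with a median of 29.9 in CP CML and 17.3 to 26.7 with a median of 21.9 in BC CML, also without overlap, and fell by 0.50 ± 0.10 (SE) (adjusted p = 0.00021), so that its level fell by 29.5%. With the Cd4 to Cd8a ratio as a covariate its difference turned to 0.26 (adjusted p = 0.362), and with NK genes to 0.40 (adjusted p = 0.482), neither called. Within BC CML, replicates 1, 5 and 6 were the highest for Tnfrsf25, the same mice that were highest for Cd28. These 3 libraries also had the least negative log2 ratio of Cd4 to Cd8a in BC CML, between -2.14 and -1.90, where the other 3 had -2.93 to -2.53 and CP CML had -1.08 to -0.56.

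OX40 and 4-1BB are both abundant on regulatory T cells, whose defining gene Foxp3 fell from 94.2 ± 8.1 (SD, n = 8) to 28.5 ± 4.3 (SD, n = 6) (log2 fold change -1.73 ± 0.08 SE, adjusted p = 1.4e-11). Of the other genes of that list, Ikzf2 rose (0.62) and Il2ra did not pass the test (0.12). Within libraries, the log2 ratio of Tnfrsf4 to Foxp3 was -1.82 to -1.36 in CP CML and -0.71 to -0.27 in BC CML, a difference of 1.08. That of Tnfrsf9 to Foxp3 was -1.30 to -0.95 in CP CML and 1.06 to 2.02 in BC CML, a difference of 2.70. Neither ratio overlapped between groups (exact two-sided permutation p = 0.000333 and 0.000666 adjusted, for each). Tnfrsf4 thus fell less than Foxp3, and Tnfrsf9 moved the other way. With Foxp3 as a covariate, whose correlation with the group was -0.985, the group difference of Tnfrsf4 was 0.25 ± 0.45 (SE, adjusted p = 0.795) and that of Tnfrsf9 was 1.08 ± 0.54 (adjusted p = 0.281). In that fit 329 of all genes were called.

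Cd40lg, the helper T cell signal to B cells, spans 57212143 to 57224042 of chromosome X (plus strand). Its normalized count was 27.8 to 38.4 with a median of 34.6 in CP CML and 20.4 to 34.3 with a median of 28.5 in BC CML. The groups overlapped over much of their range, and BC CML replicate 3 was the lowest. The log2 fold change of -0.26 ± 0.11 (SE) had an adjusted p of 0.0508, and the gene was called lower without CP CML replicate 2 (-0.29, adjusted p = 0.0282), 7 (-0.28, 0.0440) or 8 (-0.28, 0.0405), or BC CML replicate 1 (-0.31, 0.0273) or 5 (-0.32, 0.0177). Cd4, which marks the cells that make most of the ligand, fell more, by 0.73 ± 0.09 (SE) on the log2 scale. The log2 ratio of Cd40lg to Cd4 was -3.83 to -3.38 in CP CML and -3.37 to -2.88 in BC CML, so the lowest BC CML mouse lay just above the highest CP CML mouse. The ratio was 1.40-fold higher in BC CML (difference 0.48, exact two-sided permutation p = 0.000333, adjusted p = 0.000666).

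**Figure D2:**
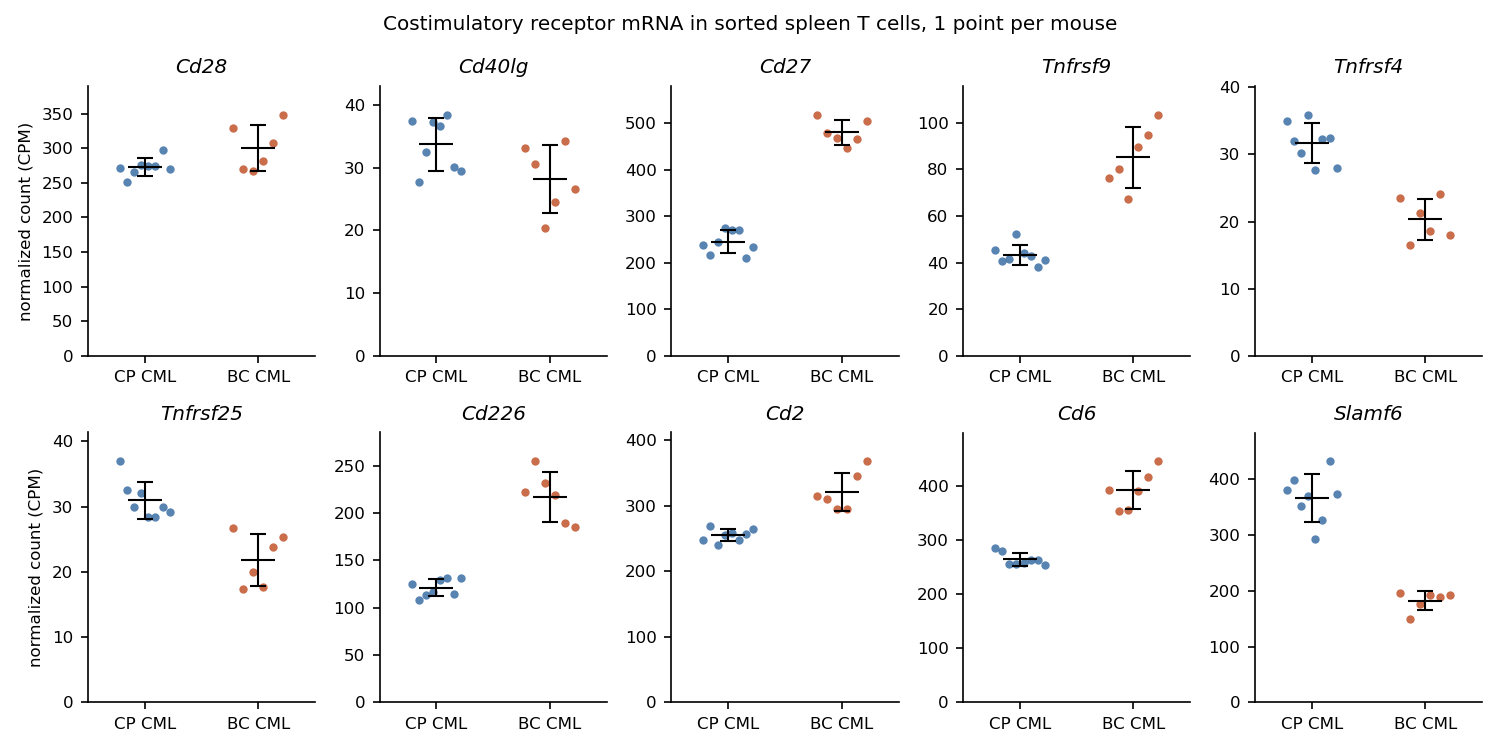
Normalized count (CPM, axes from 0) of each receptor in every mouse, 8 CP CML in blue and 6 BC CML in orange, with the mean and SD in black. The groups are apart for Cd27, Tnfrsf9, Cd226, Cd2 and Cd6 (BC CML above) and for Tnfrsf4, Tnfrsf25 and Slamf6 (BC CML below), and overlap for Cd28 and Cd40lg.

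Cd226 rose in BC CML, with a larger log2 fold change than either inhibitory receptor that shares its ligand. It is located at 89176969 to 89270327 of chromosome 18 (plus strand). Normalized counts were 108 to 132 with a median of 121 in CP CML and 186 to 255 with a median of 221 in BC CML. Every BC CML mouse was above CP CML, with replicates 5 and 6 the nearest to it. The rise was 1.79-fold (log2 0.84 ± 0.07 SE, adjusted p = 9.3e-09). Tigit rose by 0.45 ± 0.17 (SE; adjusted p = 0.0262) and Cd96 by 0.35 ± 0.05 (SE; adjusted p = 2.1e-05) on the same scale.

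The log2 ratio of Cd226 to Cd96 was -0.82 to -0.29 in CP CML and -0.43 to 0.26 in BC CML, a difference of 0.49 (exact two-sided permutation p = 0.002, adjusted p = 0.00228), with only BC CML replicate 6 below the highest CP CML value. The log2 ratio of Cd226 to Tigit was 1.78 to 2.33 in CP CML and 1.92 to 3.13 in BC CML, a difference of 0.45 (exact two-sided permutation p = 0.0406, adjusted p = 0.0406), and here BC CML replicates 4 and 5 lay within the CP CML range. That call was lost without CP CML replicate 2 (0.43), 3 (0.43), 4 (0.43), 5 (0.44) or 7 (0.40), or BC CML replicate 2 (0.35), 3 (0.42) or 6 (0.33), with adjusted exact permutation p between 0.0559 and 0.0894. When same-numbered mice were paired, neither ratio passed (exact sign-flip test, adjusted p = 0.0938 for both). Pvr, which encodes the shared ligand CD155, fell by 0.43 ± 0.06 (SE) on the log2 scale from 47.5 to 35.1, without overlap. It was the only 1 of 9 tested ligands that fell. Cd226 is also a gene of NK cells and of cytotoxic T cells, and Cd8a (log2 fold change 0.87) and the summed NK genes given above rose with it, while Cd8b1, the other CD8 chain, did not pass the test (0.07, adjusted p = 0.352). With the log2 sum of NK genes as a covariate, whose correlation with the group was 0.97, the group difference of Cd226 was 0.30 ± 0.26 (SE, adjusted p = 0.504), and with the Cd4 to Cd8a ratio as a covariate (correlation -0.94) it was 0.37 ± 0.16 (adjusted p = 0.105).

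The adhesion receptors Cd2 and Cd6 rose by smaller amounts with little spread. Cd2, which binds CD48 in the mouse, spans 101275908 to 101287939 of chromosome 3 (minus strand). The normalized count of Cd2 was 240 to 269 with a median of 256 in CP CML and 294 to 367 with a median of 312 in BC CML. All BC CML mice were above CP CML, by 1.26-fold in the mean (log2 0.33 ± 0.05 SE, adjusted p = 1.0e-05). With the log2 sum of myeloid genes as a covariate, whose correlation with the group was 0.83, the difference was 0.20 ± 0.08 (adjusted p = 0.0612). Its ligand Cd48 rose by 0.17 ± 0.04 (SE), also without overlap.

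Cd6, which binds CD166 and is a scavenger receptor family member, spans 10789339 to 10830058 of chromosome 19 (minus strand). Mice had normalized counts of 255 to 286 with a median of 261 in CP CML and 354 to 446 with a median of 392 in BC CML. It rose 1.48-fold (log2 0.57 ± 0.05 SE, adjusted p = 1.9e-08), with no overlap. With Foxp3 as a covariate the group difference of Cd6 was 0.52 ± 0.29 (adjusted p = 0.338) and was not called. Cd5, its relative and an inhibitor of antigen receptor signalling, rose by 0.29 ± 0.08 (SE), and the log2 ratio of Cd6 to Cd5 went from a mean of 0.36 ± 0.11 (SD, n = 8) to 0.64 ± 0.12 (SD, n = 6) (difference 0.28, exact two-sided permutation p = 0.000999, adjusted p = 0.0016). CP CML replicate 7 and BC CML replicate 6 met at 0.53. Alcam, which encodes CD166, rose by 1.31 ± 0.12 (SE) from 12.2 to 30.1.

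Slamf6 fell the most among the receptors. SLAMF6 is a self-binding receptor that signals through SAP and is found on naive and stem-like T cells. The gene is located at 171917537 to 171953167 of chromosome 1 (plus strand). Normalized counts of Slamf6 were 293 to 432 with a median of 372 in CP CML and 150 to 196 with a median of 191 in BC CML, so the highest BC CML mouse lay far below the lowest CP CML mouse. It fell by 50.1%, or 1.003 ± 0.08 (SE) on the log2 scale (adjusted p = 9.4e-09). With NK genes as a covariate its difference was -1.09 (adjusted p = 0.05004), and with Foxp3 -1.30 (adjusted p = 0.125), neither called. Of the 3 receptors with a seed match in the 3′UTR, Slamf6, with the 3p match, was lower in the mice without Mir142, and Cd28 (0.14) and Cd226 (0.84), with the 5p match, were higher.

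Genes of naive T cells were lower beside Slamf6, each without overlap between groups. Of all genes tested 32.7% were lower, and 17.6% had every BC CML mouse below every CP CML mouse. On the log2 scale, Ccr7, which encodes a lymph node homing receptor, changed by -1.05 ± 0.10 (SE), the transcription factor genes Lef1 and Tcf7 by -0.70 ± 0.08 and -0.67 ± 0.06, and the cytokine receptor gene Il7r by -1.004 ± 0.15. The log2 ratio of Slamf6 to Tcf7, a factor of naive and stem-like T cells, was -2.61 to -2.25 in CP CML and -2.98 to -2.54 in BC CML, a difference of -0.33 (exact two-sided permutation p = 0.00133, adjusted p = 0.00178). The groups overlapped in this ratio, with BC CML replicate 4 inside the CP CML range. Of other receptors of the SLAM family, Cd84 fell by 0.16, Ly9 rose by 0.17, Slamf1 did not pass the test (-0.12), and Cd244 rose by 2.65. Sh2d1a, which encodes SAP, rose by 0.26 ± 0.05 (SE).

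**Figure D3:**
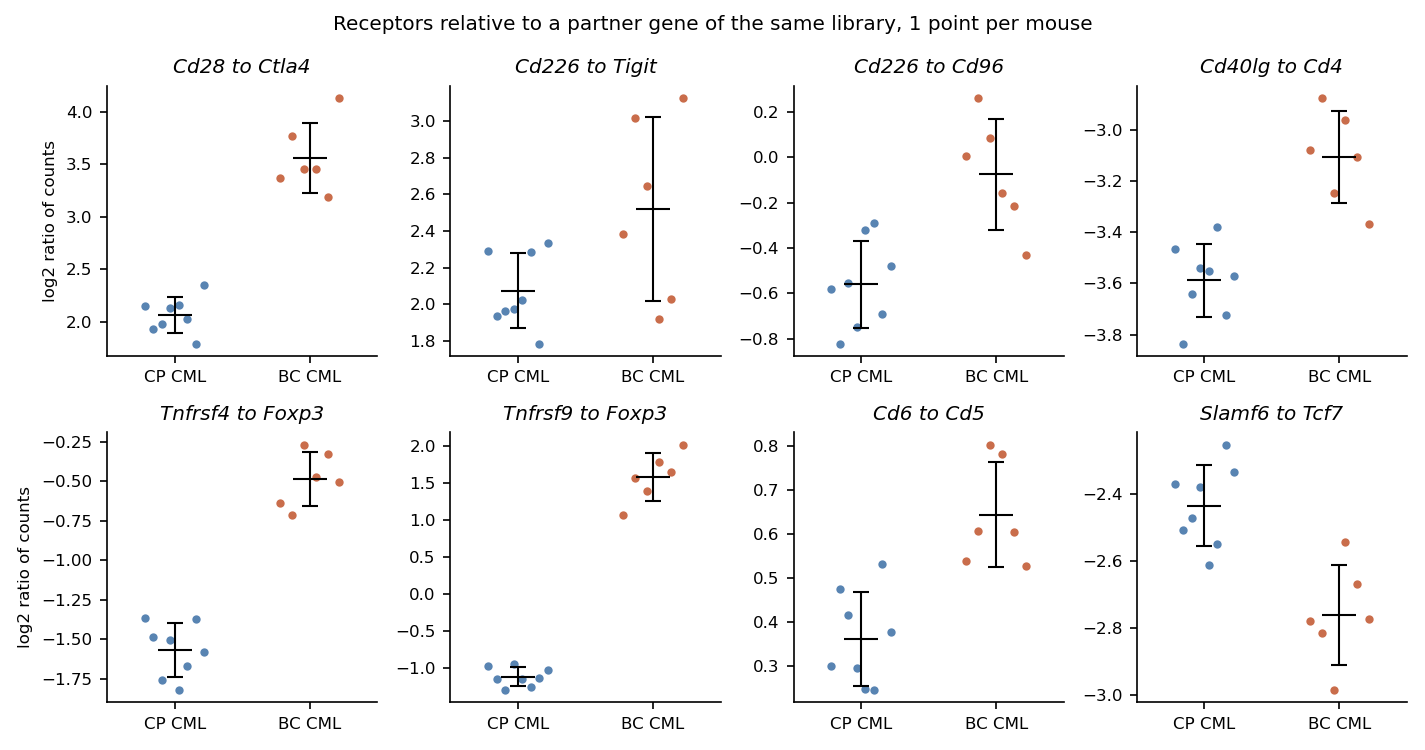
Log2 ratio of read counts of a receptor to a partner gene in the same library, 1 point per mouse (8 CP CML, 6 BC CML), with the mean and SD; axes differ between panels. The groups are apart for Cd28 to Ctla4, Cd40lg to Cd4, Tnfrsf4 to Foxp3 and Tnfrsf9 to Foxp3, and overlap for Cd226 to Tigit, Cd226 to Cd96, Cd6 to Cd5 and Slamf6 to Tcf7.

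The receptors differed widely in level once counts were divided by the length of each gene model, and their order changed between groups. In normalized counts per kilobase, Cd2 was the highest in CP CML at 224 ± 8.3 (SD, n = 8), followed by Cd27 at 127 ± 12.9 and Cd6 at 84.4 ± 3.8. Slamf6 (52.4 ± 6.1), Cd28 (48.6 ± 2.3) and Cd226 (43.1 ± 3.3) came next, each with an SD range that met that of its neighbour. Cd40lg (27.1 ± 3.4) and Tnfrsf4 (25.7 ± 2.4) overlapped in their SD ranges, as did Tnfrsf9 (19.6 ± 2.0) and Tnfrsf25 (16.3 ± 1.5). These ranges are over mice, and the levels of the genes were not compared mouse by mouse. In BC CML, Cd2 (282 ± 25.6, SD, n = 6) and Cd27 (248 ± 13.7) overlapped in their SDs at the top, and Cd6 (125 ± 11.2), Cd226 (77.2 ± 9.3), Cd28 (53.6 ± 5.9) and Tnfrsf9 (38.5 ± 6.0) followed, each apart from the next. Slamf6 (26.1 ± 2.5) then overlapped Cd40lg (22.7 ± 4.3), which overlapped Tnfrsf4 (16.5 ± 2.5), and Tnfrsf25 was the lowest at 11.5 ± 2.1. Slamf6 went from the fourth place to the seventh, and Tnfrsf9 from the ninth to the sixth.

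**Figure D4:**
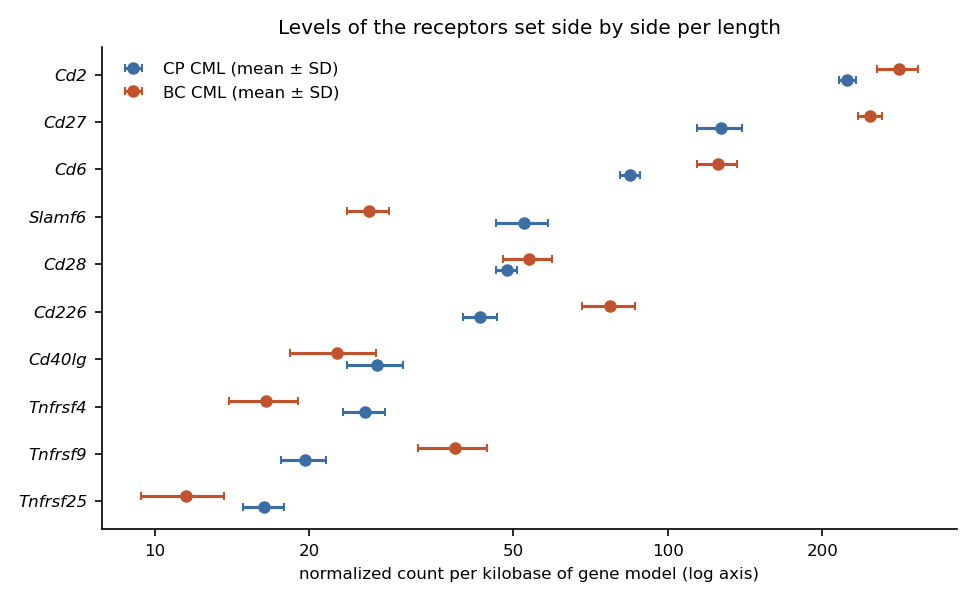
Normalized count per kilobase of gene model (log axis) for each receptor, as mean and SD over 8 CP CML mice in blue and 6 BC CML mice in orange. Cd2 is highest in both groups (224 and 282) and Tnfrsf25 lowest (16.3 and 11.5), and Slamf6 lies above Tnfrsf9 in CP CML and below it in BC CML.

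The receptors also varied in how far mice of a group differed. The coefficient of variation over mice ran from 3.69% (Cd2) to 12.5% (Cd40lg) in CP CML and from 5.54% (Cd27) to 19.0% (Cd40lg) in BC CML. The genes at the lowest counts, Cd40lg, Tnfrsf4 and Tnfrsf25, still had at least 264 reads in every library. Among the 10 genes only Cd27 shares exon bases with another annotated gene, 129 bases with a microRNA gene on its own strand. Vamp1, Camta1 and Gm37065 overlap Cd27, Tnfrsf9 and Slamf6 on the opposite strand without sharing exon bases, and the strand setting of the counting is not given in the sources used here.

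Many ligands of these receptors had low counts in the sorted cells. Of 13 ligand genes listed, 9 had enough reads to be tested, 7 rose, Pvr fell and Tnfsf9 did not pass the test (0.34, adjusted p = 0.159), with a median log2 fold change of 0.86. Across all genes tested 32.6% were higher and 32.7% lower. B cell, myeloid and dendritic cell genes, whose ranges are given above, rose with the ligands, and their part in these values was not tested. Cd40, the receptor of CD40L on B cells and myeloid cells, rose by 1.84 ± 0.39 (SE) from 0.88 ± 0.41 (SD, n = 8) to 3.13 ± 1.83 (SD, n = 6), with overlap between groups. Tnfsf4, the ligand of OX40, rose by 0.92 ± 0.22 (SE) from 0.65 to 1.25. The ligands Cd70, Tnfsf15, Nectin2 and Tnfsf18 were too low to be tested, with at most 18 reads in any library.

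Of the 6 inhibitory partners analysed, 4 rose, Ctla4 fell and Btla did not pass the test (-0.19, adjusted p = 0.125), with a median log2 fold change of 0.32. Cd244, a SLAM family receptor of NK and cytotoxic T cells that binds CD48, rose the most, from 5.69 ± 1.40 (SD, n = 8) to 35.9 ± 18.7 (SD, n = 6), a log2 fold change of 2.65 ± 0.27 (SE; adjusted p = 8.5e-07). It moved with the NK genes given above, whose part in its rise was not tested. Of 10 other costimulatory genes, 5 rose, 2 fell and 3 did not pass, with a median of 0.09. Of all genes tested 65.2% were called, 32.6% higher and 32.7% lower. Crtam, a receptor of activated cytotoxic T cells, rose by 0.88 ± 0.05 (SE) from 35.0 to 64.3, Itgal, which encodes a chain of LFA-1, by 0.40 ± 0.09, Tnfrsf18, which encodes GITR, by 0.30 ± 0.06, and Cd81 by 0.29 ± 0.12. Tnfrsf1b (0.00) and Tnfrsf14 (0.01) did not pass the test.

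Downstream of the receptors, 12 of 29 adaptor and signalling genes rose, 8 fell and 9 did not pass, with a median log2 fold change of 0.08. The highest were Bcl2l1, which encodes the survival protein Bcl-xL (1.08 ± 0.07 SE, from 19.0 to 40.3), Birc2, which encodes the ubiquitin ligase cIAP1 (0.92 ± 0.04, from 131 to 248), and Siva1, whose product binds the CD27 tail (0.69 ± 0.11, from 5.20 to 8.40). The lowest were the receptor adaptor Traf5 (-0.39 ± 0.05), the PI3K regulatory subunit Pik3r1 (-0.39 ± 0.05) and Traf6 (-0.31 ± 0.04). The highest and lowest of these did not overlap between groups. Across all genes tested 32.6% were higher and 32.7% lower.

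The group difference of several receptors changed when marker genes entered the fit. With the Cd4 to Cd8a ratio as a covariate, Cd27 (1.03 ± 0.18 SE), Tnfrsf9 (1.39 ± 0.23), Cd6 (0.93 ± 0.11), Cd2 (0.66 ± 0.11) and Cd28 (0.54 ± 0.13) were called higher and Slamf6 (-0.77 ± 0.22) lower. Cd226 (0.37 ± 0.16, adjusted p = 0.105) and Tnfrsf4 (-0.31 ± 0.24, adjusted p = 0.369) were not called. Tnfrsf25 (0.26 ± 0.20, adjusted p = 0.362) and Cd40lg (0.39 ± 0.28, adjusted p = 0.338) turned to positive values that did not pass. In that fit 2953 of the 12248 genes were called, where 7986 were called without a covariate. The log2 sum of B cell genes had a correlation of 0.66 with the group, and that of myeloid genes 0.83 without overlap between groups. With the log2 sum of B cell genes as a covariate 9 receptors, and 6586 of all genes, were called and Cd28 was not (0.06 ± 0.07, adjusted p = 0.496). With that of myeloid genes 7 were called, among 4817 of all genes. Cd28 (0.11 ± 0.11, adjusted p = 0.449), Cd2 (0.20 ± 0.08, 0.0612) and Cd40lg (-0.08 ± 0.20, 0.790) were not called there. With that of NK genes 4 were called, all higher, among 1114 of 12248 genes called in that fit, and none of the receptors was called lower: Slamf6 had -1.09 ± 0.33 (adjusted p = 0.05004) and Tnfrsf4 -0.30 ± 0.36 (adjusted p = 0.637).

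**Figure D5:**
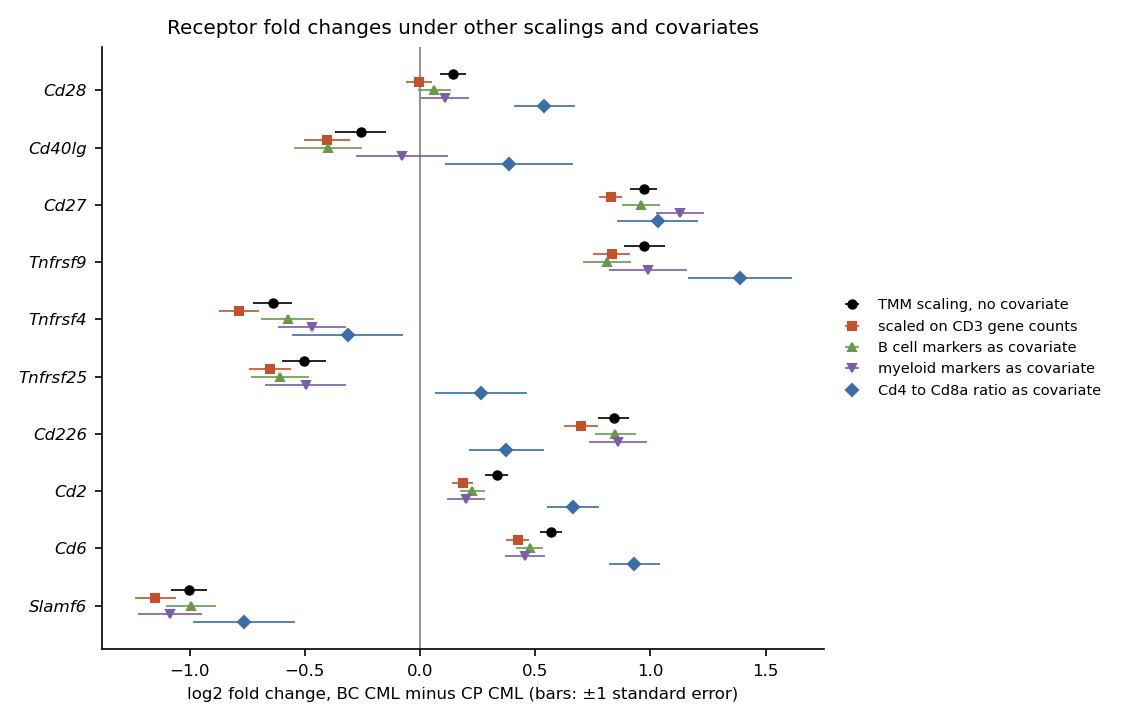
Log2 fold change of each receptor (BC CML minus CP CML, bars of 1 standard error) under TMM scaling, under scaling on CD3 gene counts, and with B cell genes, myeloid genes or the Cd4 to Cd8a ratio as a covariate; the fits with Foxp3 or NK genes are not drawn. Slamf6 lies between -1.15 and -0.77 and Cd27 between 0.83 and 1.13 in the settings drawn, while Tnfrsf25 and Cd40lg cross 0 with the Cd4 to Cd8a ratio as a covariate.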

How the data were processed

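RNA-seq of spleen T cells from 8 CP CML and 6 BC CML mice was analysed. The authors trimmed reads with Trimmomatic and FASTP, aligned them to mm10 with STAR 2.6.0 and counted them per gene with HTSeq 0.11.1. They deposited raw counts for 24091 genes with gene positions and lengths. The annotation and strand setting are not given in the sources used here. Each column was matched to a mouse through the labels.

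Tests were run in edgeR 4.0.16 (R 4.3.3). Genes kept by filterByExpr (12248) were TMM-scaled and entered a robust quasi-likelihood test with Benjamini-Hochberg adjustment over all of them and a threshold of 0.05. Standard errors came from the fold change and the F statistic. Ratios within a library (0.5 added to each count) were compared by exact permutation, two-sided, over the 3003 ways of assigning 6 of the mice to BC CML, adjusted over 8 ratios. Levels per kilobase used the deposited gene lengths. Fits were tested on simulated data. Pairs of replicates differed beyond sampling noise (chi-square over its degrees of freedom 3.09 to 22.8, where noise gives 1), so none was counted as a repeat sequencing of another. A second library from the same mouse would not be seen in this way. The column name of BC CML replicate 5 carries a suffix (RP) that the labels do not explain.

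The receptors and the lists of ligands, partners, signalling genes and markers were chosen with earlier results of these data known. All receptors were named. Ligands, inhibitory partners and other costimulators could be named, and so could the 3 highest and 3 lowest called signalling genes and T cell subset markers beside a receptor. In these lists Pvrig, Trac, Trbc2 and Hba-a1 were not analysed here, and Cd244a is listed as Cd244. A further gene of the naive T cell list is not reported here. The alternatives tried were DESeq2 1.42.0, edgeR's likelihood ratio test, scaling by RLE or by library size alone, other filters, the replicate number as a block, scaling on CD3 genes, the Cd4 to Cd8a ratio or Foxp3 as a covariate, 1 added to each count in the ratios, and each mouse left out in turn. Marker sums of B cell, myeloid and NK genes as covariates were added after seeing the data. Seed matches used GENCODE vM21 and RefSeq sequences of GRCm38.p6, the same build as mm10.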

Additional observations from a re-analysis of the deposited data

Results flagged for a closer look

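One value stood apart from the others of its group. BC CML replicate 2 had a total of 16145537 reads in genes, where the next lowest BC CML library had 18319039, a gap of 0.668 of the range of that group. Of 38 groups of values examined (totals, receptors and ratios in each group) 1 stood out in this way, and chance gives about 1 in 20, or 1.9 of 38.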

How the results depend on the processing

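Calls over all genes numbered 7986, between 7318 and 8719 under other tests, scalings, filters and the replicate block, and between 7721 and 7966 without single mice. Cd27 kept its call in every fit run. Cd28, already the smallest change, had 0.13 (adjusted p = 0.0516) with library size alone and turned to -0.0045 (0.947) with scaling on CD3 genes; without single mice it was 0.10 to 0.17. Cd40lg passed under the likelihood ratio test (-0.26, 0.0408), DESeq2 (-0.25, 0.0437), library size alone (-0.27, 0.0439), CD3 scaling (-0.40, 0.00173) and the B cell covariate (-0.40, 0.0311), and was -0.32 to -0.18 without single mice.

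With the Cd4 to Cd8a ratio as a covariate 6 receptors were called, 1 of them lower, where 2953 of 12248 genes were called, 1717 of them higher. Cd40lg (0.39) and Tnfrsf25 (0.26) reversed without passing. With Foxp3, 1 receptor was called, 1 higher (Cd27, 1.80) and 0 lower (Slamf6 had -1.30 ± 0.45, adjusted p = 0.125). That fit called 329 of 12248 genes, 238 of them higher. Cd40lg (1.43), Tnfrsf4 (0.25) and Tnfrsf25 (0.23) reversed without passing. With NK genes 4 were called and 0 lower, where 1114 of 12248 genes were called, 721 of them higher. Cd40lg (0.48) and Tnfrsf25 (0.40) reversed without passing. These covariates followed the group closely (correlations -0.939, -0.985 and 0.971), which leaves little of the difference to be tested. The B cell and myeloid sums had correlations of 0.662 and 0.831 with the group. The causes were not tested.

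Same-numbered mice of the groups did not vary together (mean correlation -0.024, range -0.27 to 0.36), and they are different animals. With the replicate block 7318 genes and 10 receptors were called, Cd40lg among them (-0.33, adjusted p = 0.0258). For the ratios this alternative used another test, an exact sign flip over same-numbered pairs of mice. CP CML replicates 7 and 8, which have no partner, were left out. The ratios of Cd226 to Tigit (0.44) and to Cd96 (0.48) then no longer passed (adjusted p = 0.0938 for both). Each of the other ratios had an adjusted p of 0.0417 in that test. The Cd226 to Tigit difference was 0.33 to 0.57 without single mice. The other ratios kept their calls in all fits run. The receptors had at least 264 reads in each library, and 4 of 13 ligands had too few reads to be tested.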
